A study of Mus musculus with 2 samples.

Results

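Toll-like receptors let myeloid cells sense conserved molecules of microbes, and 8 listed genes of this sensing system were followed here out of 26124 genes counted in mouse bone marrow (BM) cultures. They were taken by name, without use of their values: the cell surface receptors Tlr1, Tlr2 and Tlr4, the endosomal receptors Tlr7, Tlr9 and Tlr13, the co-receptor Cd14 and the adaptor Myd88. Lineage-depleted (Lin-) BM progenitors of C57BL/6 mice, 8 to 10 weeks old, were grown with 20 ng/ml GM-CSF, a growth factor that yields neutrophils, macrophages and dendritic cells in 1 dish. On day 3, cultures received 300 µM heme bound to albumin (heme) or albumin alone (control). Cells of days 0, 3, 4, 5 and 7 were tagged with barcoded antibodies (hashtags), pooled by treatment and run as 1 droplet library for the control and 1 for heme, so 10 cultures were measured and no group had a second library. The treatment and the library therefore cannot be told apart, and no difference below has a replicate check. The exposure times in the series' design text do not match a day 5 harvest after addition on day 3, so the exposure behind the day 5 values is uncertain, and days are given as the hashtags name them. By the protocol, cells of days 0 and 3 had met no heme, and the difference between the libraries on day 3 served as the background for the later days.

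As background, surface receptors bind outer components of microbes, with Tlr2 pairing with Tlr1 or Tlr6 for lipoproteins and Tlr4 working with Ly96 for lipopolysaccharide. The endosomal receptors bind nucleic acids: single-stranded RNA for Tlr7, unmethylated CpG DNA for Tlr9 and a bacterial ribosomal RNA sequence for Tlr13, a receptor that mice have and humans lack. Cd14 hands lipopolysaccharide to Tlr4 and Ly96 and also serves other receptors. Myd88 couples these receptors to the Irak kinases, to NF-kB and to inflammatory cytokine genes. Monocytes, macrophages and neutrophils are known to carry Tlr2, Tlr4 and Cd14.

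Positions are those of the GENCODE M21 annotation of GRCm38. Tlr1 (ENSMUSG00000044827) occupied chr5:64924679-64933563 on the minus strand, 18467 bases from its close paralog Tlr6, with which reads of near-identical sequence may be shared. Tlr2 (ENSMUSG00000027995) lay at chr3:83836272-83841767 on the minus strand, and Tlr4 (ENSMUSG00000039005) at chr4:66827584-66930284 on the plus strand. Both Tlr7 (chrX:167304929-167330558, minus strand), 40599 bases from Tlr8, and Tlr13 (chrX:106143204-106160493, plus strand) were X-linked. Tlr9 (chr9:106222598-106226883, plus strand) and Myd88 (chr9:119335934-119341411, minus strand) shared a chromosome. Myd88 was the only one of the 8 to overlap other genes in the annotation, Slc22a14 on the same strand and Acaa1a on the opposite strand.

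The RefSeq promoter table (GRCm38.p6) held 5 of the 8 genes and none of Tlr4, Tlr7 or Cd14. The 250 bases before each start site were searched on both strands for an NF-kB motif (GGGAA, any 3 bases, then CC, found in 4.94% of 32851 promoters), the antioxidant response element (TGACNNNGC, 10.2%), AP-1 (TGACTCA, 4.46%), PU.1 (GAGGAA, 23.3%) and the core of the interferon-stimulated response element (GAAA, any 2 bases, then GAAA, 2.98%). Tlr2 and Tlr13 are shown because their levels differed by at least 2-fold on day 7 and their promoters were in the table. The stretches printed end at the base before the first annotated base of each gene, at chr3:83841768-83841858 (minus strand) for Tlr2 and at chrX:106143025-106143203 (plus strand) for Tlr13. Capitals mark the NF-kB motif in Tlr2, which matched on both strands over the same letters, and the PU.1 motif in Tlr13.
Tlr2: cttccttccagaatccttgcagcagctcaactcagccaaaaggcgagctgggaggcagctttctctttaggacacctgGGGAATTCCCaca
Tlr13: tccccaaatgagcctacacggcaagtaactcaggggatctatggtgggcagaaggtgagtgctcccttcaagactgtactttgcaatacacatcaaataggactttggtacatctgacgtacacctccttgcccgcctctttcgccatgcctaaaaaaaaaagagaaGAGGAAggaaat
The NF-kB match began 172 bases before the RefSeq start site of Tlr2, and the PU.1 match 83 bases before that of Tlr13. The other motifs searched, the antioxidant response element among them, had no match in the window of either gene. Matches also occurred for Tlr1 (PU.1), Tlr9 (antioxidant response element, AP-1 and PU.1) and Myd88 (interferon-stimulated response element core). These matches describe letters in a window and do not show that a factor was bound.

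After filtering, 9684 control and 9941 heme cells remained, 598 to 2715 per culture, with 6189203 to 34647365 unique molecular identifiers (UMIs, each standing for 1 captured transcript) per culture. Levels are given in counts per 1000000 UMIs of the culture (CPM), and ranges in parentheses are exact 95% intervals that cover counting error only. Barcodes with over 5000 genes, which the study's filter removed, made up 1.92% to 8.34% of the singlets of the control cultures and 16.4% to 33.9% of those of the heme cultures. Of all barcodes, 112 occurred in both libraries, 33 of them among the kept cells. Hmox1, the inducible heme-degrading enzyme, stood at 133 CPM on day 0 and 161 CPM on day 3 in the heme library, against 1.94 and 37.3 CPM in the control library. Erythroid-like cells of day 0, which should lack these receptors, held 5.54% of the library-wide Hmox1 level in the heme library. In the same 188 cells Tlr2 reached 5.08% of its library-wide level, Tlr7 5.12%, Tlr4 4.34%, Cd14 4.25% and Tlr13 3.51%, so low levels of these genes in the heme library cannot be told from free RNA. Myd88 reached 34.0% there and 39.0% in the control library. The marker genes of neutrophils summed to 29722 CPM in the heme culture and 4433 CPM in the control culture of day 7, those of macrophages to 1372 and 733 CPM, and those of dendritic cells to 145 and 1209 CPM. All 10 neutrophil, 10 macrophage and 9 dendritic cell markers had UMIs in both cultures of day 7, and their part in the differences below was not tested. A sum does not show that every marker in it differed in the same way. Among the macrophage markers, Mrc1 was at 275 CPM with heme and 60.6 CPM in the control, and Csf1r at 212 and 161 CPM. In sums over a culture, fewer cells that carry a gene and less of its RNA per cell cannot be told apart.

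On day 7, Tlr2, Tlr7 and Tlr13 were at least 2-fold higher in the heme culture than in the control culture, while Cd14 was at least 2-fold lower. Tlr1 and Tlr4 were higher by less than 2-fold, Myd88 stood at nearly the same level, and Tlr9 was close to undetected. These counts of 3 higher and 1 lower come from 7 genes with at least 20 UMIs over both cultures together. Of all 12867 genes so counted, 14.9% were at least 2-fold higher and 7.67% at least 2-fold lower, and the median log2 ratio was 0.83 over the 7 genes and 0.28 over all genes. With TMM or DESeq2 scaling, Tlr2 and Cd14 stayed past 2-fold, whereas Tlr7 (log2 ratios of 0.89 and 0.87) and Tlr13 (0.80 and 0.77) did not.

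**Figure D1:**
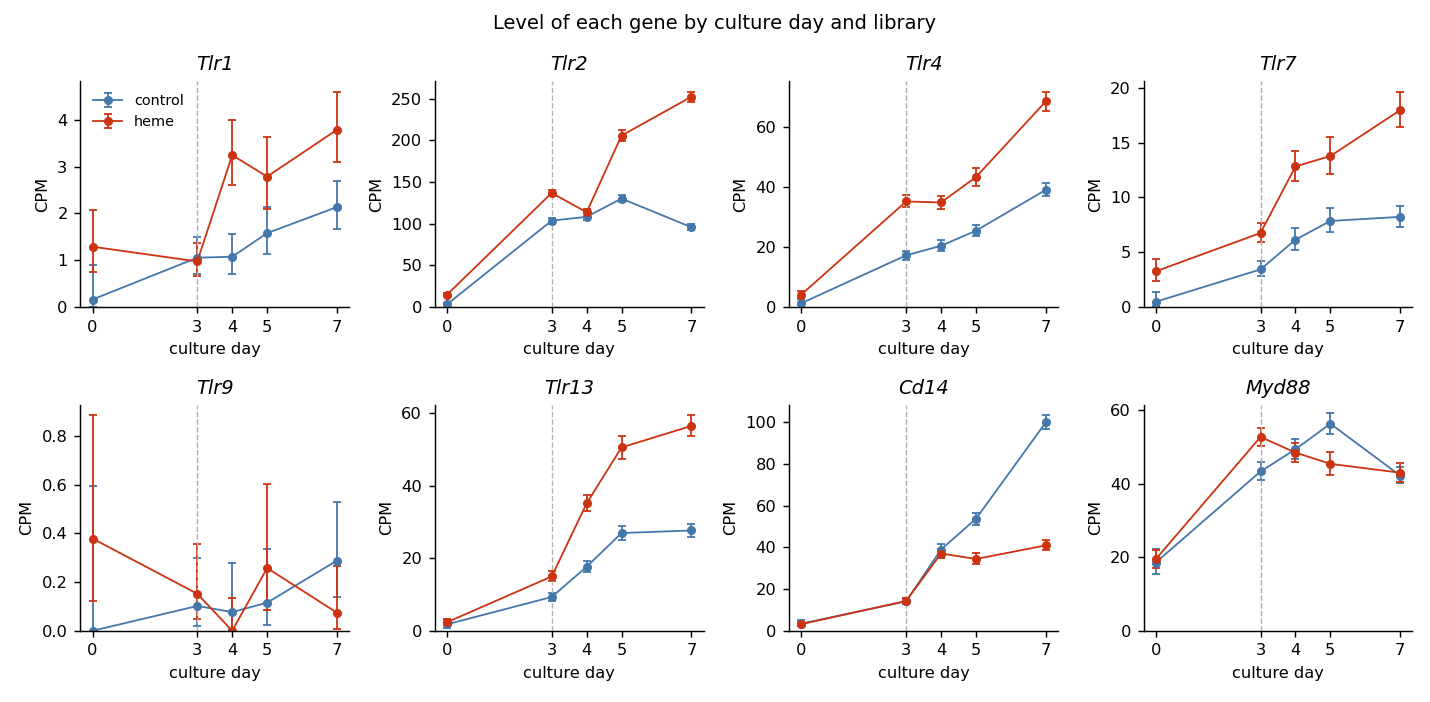
Level of each of the 8 genes in CPM (vertical axis) against culture day (horizontal axis) in the control (blue) and heme (red) libraries, with exact 95% counting intervals as bars and a dashed line at the day of addition. Tlr2 ended at 252 CPM with heme and 95.8 CPM in the control, and Cd14 at 40.9 and 99.8 CPM, while Myd88 ended at 43.0 and 42.2 CPM.

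Tlr2, the shared partner in lipoprotein sensing, was at 3.23, 104, 108, 130 and 95.8 CPM in the control cultures of days 0, 3, 4, 5 and 7. The heme cultures held 14.8, 137, 114, 206 and 252 CPM. The control cultures stayed between 95.8 and 130 CPM from day 3 on, whereas the heme cultures of days 3, 5 and 7 lay above every control culture. The ratio of heme to control was 1.32 (1.26 to 1.38) on day 3, 1.05 (0.998 to 1.11) on day 4, 1.58 (1.51 to 1.65) on day 5 and 2.63 (2.53 to 2.75) on day 7. Relative to day 3, that is, divided by the ratio of day 3, it was 0.796 (0.743 to 0.853) on day 4, 1.20 (1.12 to 1.28) on day 5 and 2.00 (1.87 to 2.12) on day 7. The difference of day 4 changed sign with TMM or DESeq2 scaling. From day 3 to day 7, Tlr2 changed by a factor of 0.924 (0.879 to 0.970) without heme and 1.84 (1.77 to 1.91) with heme.

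Tlr4, the lipopolysaccharide receptor, was at 1.29, 17.2, 20.4, 25.4 and 39.0 CPM in the control cultures in order of day, and at 4.17, 35.1, 34.8, 43.2 and 68.4 CPM in the heme cultures. The heme library was higher on every day, with a ratio of 2.04 (1.84 to 2.27) on day 3, 1.71 (1.53 to 1.90) on day 4, 1.70 (1.53 to 1.89) on day 5 and 1.75 (1.63 to 1.88) on day 7. Thus the largest of these 4 ratios came from the cultures that had met no heme. Relative to day 3, the 3 later ratios lay between 0.833 and 0.859, below 1 with their intervals. Tlr4 rose from day 3 to day 7 in both libraries, by a factor of 2.27 without heme and 1.95 with heme.

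Cd14, the co-receptor (ENSMUSG00000051439, on chromosome 18), was at 3.39, 14.1, 38.9, 53.7 and 99.8 CPM in the control cultures and at 3.18, 14.3, 37.0, 34.4 and 40.9 CPM in the heme cultures. Both libraries began alike and parted after day 4, when the control cultures went on rising and the heme cultures stayed between 34.4 and 40.9 CPM. On day 3 the ratio of heme to control was 1.01 (0.885 to 1.16), and on day 4 it was 0.951 (0.871 to 1.04), a difference that changed sign when cells with over 5000 genes were kept. It was 0.641 (0.584 to 0.704) on day 5 and 0.410 (0.382 to 0.438) on day 7. With day 3 divided out, it was 0.634 (0.538 to 0.746) on day 5 and 0.405 (0.348 to 0.471) on day 7. Over days 3 to 7, Cd14 rose by a factor of 7.08 (6.39 to 7.85) without heme and 2.86 (2.57 to 3.20) with heme. Of the 7 counted genes, Cd14 was the only one lower by at least 2-fold with heme on any day.

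Tlr13, the receptor for bacterial ribosomal RNA, was at 1.78, 9.32, 17.7, 26.9 and 27.7 CPM in the control cultures and at 2.35, 15.0, 35.1, 50.5 and 56.5 CPM in the heme cultures. The ratio was 1.61 (1.38 to 1.87) on day 3, 1.99 (1.78 to 2.23) on day 4, 1.88 (1.70 to 2.07) on day 5 and 2.04 (1.88 to 2.22) on day 7. Relative to day 3 these were 1.24 (1.02 to 1.49), 1.17 (0.974 to 1.40) and 1.27 (1.07 to 1.51).

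Tlr7, the receptor for single-stranded RNA, was at 0.485, 3.43, 6.14, 7.85 and 8.23 CPM in the control cultures and at 3.26, 6.76, 12.8, 13.8 and 18.0 CPM in the heme cultures. It was 1.97 (1.55 to 2.52) times the control level on day 3 and 2.18 (1.88 to 2.54) times on day 7. Its ratios on days 4, 5 and 7 relative to day 3 were 1.06, 0.891 and 1.11, each with an interval that held 1.

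Tlr1, the partner of Tlr2 for triacylated lipoproteins, gave only 1 to 102 UMIs per culture. It was at 0.162, 1.05, 1.07, 1.58 and 2.14 CPM in the control cultures and at 1.29, 0.974, 3.24, 2.79 and 3.78 CPM in the heme cultures. On day 3 the ratio was 0.924 (0.546 to 1.57), and on days 4, 5 and 7 it was 3.02 (1.95 to 4.79), 1.76 (1.15 to 2.72) and 1.77 (1.30 to 2.42). The day 7 ratio relative to day 3 was 1.92 with an interval from 1.04 to 3.54. Tlr9, the CpG DNA receptor, had 0, 3, 2, 3 and 10 UMIs in the control cultures and 5, 5, 0, 5 and 2 in the heme cultures, and a difference was not detectable at this depth.

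Myd88, the adaptor, was at 18.6, 43.3, 49.4, 56.4 and 42.2 CPM in the control cultures and at 19.5, 52.8, 48.5, 45.4 and 43.0 CPM in the heme cultures. All 8 cultures from day 3 on lay between 42.2 and 56.4 CPM. The ratio of heme to control was 1.22 (1.13 to 1.31) on day 3, 0.982 (0.909 to 1.06) on day 4, 0.806 (0.741 to 0.877) on day 5 and 1.02 (0.942 to 1.10) on day 7. The sign of the day 7 difference changed with the scaling, and that of day 4 with per-cell means. Relative to day 3, the ratio was 0.663 (0.592 to 0.741) on day 5 and 0.837 (0.752 to 0.931) on day 7.

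**Figure D2:**
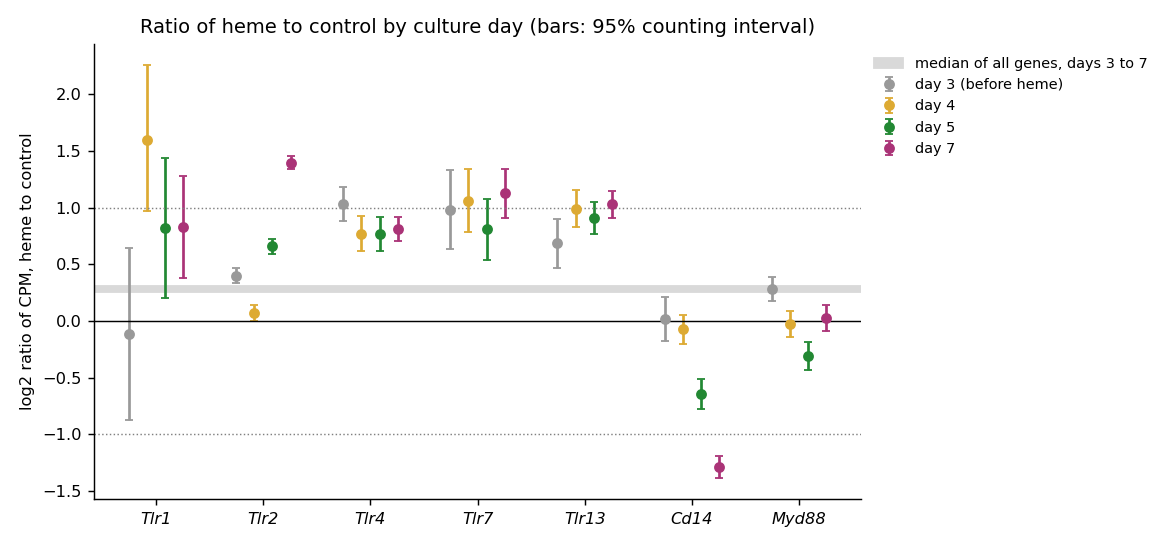
Log2 ratio of CPM, heme to control (vertical axis), for the 7 genes with at least 20 UMIs over both cultures of day 7 (horizontal axis), with 1 point per culture day from day 3 to day 7 and 95% counting intervals as bars. The grey band marks the medians of all genes on these days, 0.25 to 0.31, and the dotted lines mark 2-fold. Cd14 went from 0.02 on day 3 to -1.29 on day 7 and Tlr2 from 0.40 to 1.40, while Tlr4 was at 1.03 on day 3 and 0.81 on day 7.

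On the earlier days few of the genes passed 2-fold. On day 3, before the addition, Tlr4 was the only one of 7 counted genes that was at least 2-fold higher in the heme library, beside 7.95% of all genes, and none was 2-fold lower, beside 0.539%. On day 4, Tlr1 and Tlr7 were at least 2-fold higher (9.64% of all genes) and none was lower (2.98%). With TMM or DESeq2 scaling, Tlr4 on day 3 and Tlr7 on day 4 were under 2-fold. On day 5 none passed in either direction, beside 9.27% higher and 3.75% lower. The median log2 ratio of the 7 genes was 0.40 on day 3, 0.77 on day 4 and 0.77 on day 5, beside all-gene medians of 0.31, 0.28 and 0.25. With day 3 divided out, the median of the 7 genes was -0.089 on day 4, -0.17 on day 5 and 0.15 on day 7.

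The genes also rose before heme was added. From day 0 to day 3, all 7 genes so counted in the control library were at least 2-fold higher, beside 15.3% of all genes, and 6 of 7 in the heme library, beside 11.6%. None was 2-fold lower, beside 20.7% and 26.8% of all genes. Tlr2 rose by a factor of 32.1 in the control cultures and 9.26 in those meant for heme. The day 0 cultures differed from each other, with Tlr2 at a heme to control ratio of 4.57 (2.88 to 7.66) on day 0. Erythroid-like cells of that day gave a Tlr2 level of 1.19 CPM for the control and 7.89 CPM for the heme culture. Filtering kept 34.8% of the control singlets of day 0, against 72.8% of those of the heme culture. The part of free RNA and of filtering in this ratio and in the rises of Tlr2 to day 3 was not tested. From day 3 to day 7, 5 of the genes rose by at least 2-fold in the control library, beside 15.9% of all genes, and 4 in the heme library, beside 12.5%. None fell by 2-fold, beside 8.85% and 9.56% of all genes.

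Counted by cell instead of by transcript, the same pattern was seen on day 7. Each cell was thinned to 3000 UMIs, which left out 173 control and 112 heme cells of that day. Tlr2 was detected in 22.0% (20.4% to 23.7%) of control cells and 48.7% (46.4% to 51.0%) of heme cells. Cd14 was detected in 21.4% of control and 12.7% of heme cells, Tlr4 in 10.9% and 17.3%, Tlr13 in 7.83% and 13.9%, and Tlr7 in 2.24% and 4.16%. Myd88 was detected in 11.3% and 11.4% of cells. On day 3, the thinned shares of Tlr4 were already 4.80% and 9.46%, whereas those of Cd14 were 4.26% and 3.96%. As a background, Tlr2 was found in 0 of 174 thinned erythroid-like cells of the control library and in 1.62% of 185 of the heme library, at median depths of 19525.5 and 19188 UMIs before thinning.

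The cells of both libraries were grouped into 22 clusters without the use of these genes or of the pathway genes described below, and a cluster was named only where its markers allowed it. Tlr2 had its highest levels in some neutrophil-like clusters, in the macrophage-like cluster 11 and in unnamed clusters led by Vcan, a monocyte gene. It reached 378 CPM in the neutrophil-like cluster 12 (leading genes Mmp9 and Il1rn), 335 CPM in the unnamed cluster 9 (Vcan and Ear2), 322 CPM in the neutrophil-like cluster 3 (Mmp8 and Fpr1) and 297 CPM in the macrophage-like cluster 11 (Marco and Hmox1). The other neutrophil-like clusters held less Tlr2, with 117 CPM in cluster 1, 36.7 CPM in cluster 17, 29.5 CPM in cluster 4 and 13.3 CPM in cluster 14. In the dendritic cell-like cluster 13 (Ccl5 and Ccr7), Tlr2 was at 12.4 CPM, Tlr4 at 13.3 CPM, Cd14 at 8.41 CPM and Myd88 at 16.3 CPM. Cluster 7 held Tlr2 at 56.9 CPM and Myd88 at 74.1 CPM. It was led by Ccl17 and Plet1, with the MHC class II genes H2-Ab1 and H2-Eb1 among its leading genes, and is left unnamed here. The macrophage markers C1qa, C1qb and C1qc were raised in cluster 7, with 8.92% of cells from the heme library. They were not among the markers raised in cluster 11.

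Cd14 had its highest levels in clusters 10 and 12, which came almost entirely from the control library. It was at 182 CPM in the unnamed cluster 10 (Arg1 and Fn1), with 0.692% of cells from the heme library, and at 150 CPM in cluster 12, with 4.25%. Other clusters mostly of the control library held less. Cd14 was at 51.1 CPM in cluster 7 (8.92% heme), 6.99 CPM in cluster 14 (0.525%) and 4.34 CPM in cluster 6 (0%). In clusters mostly of the heme library it was at 61.7 CPM in cluster 3 (97.0% heme) and 50.3 CPM in cluster 11 (99.5% heme). Clusters 22 (95.9% heme) and 5 (93.7% heme) held 51.3 and 8.93 CPM. Between clusters 10 and 11, Tlr4 differed less than Cd14, at 72.1 and 77.2 CPM. With 1 library per treatment, a cluster held mostly by 1 library may mark that library rather than a cell type.

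**Figure D3:**
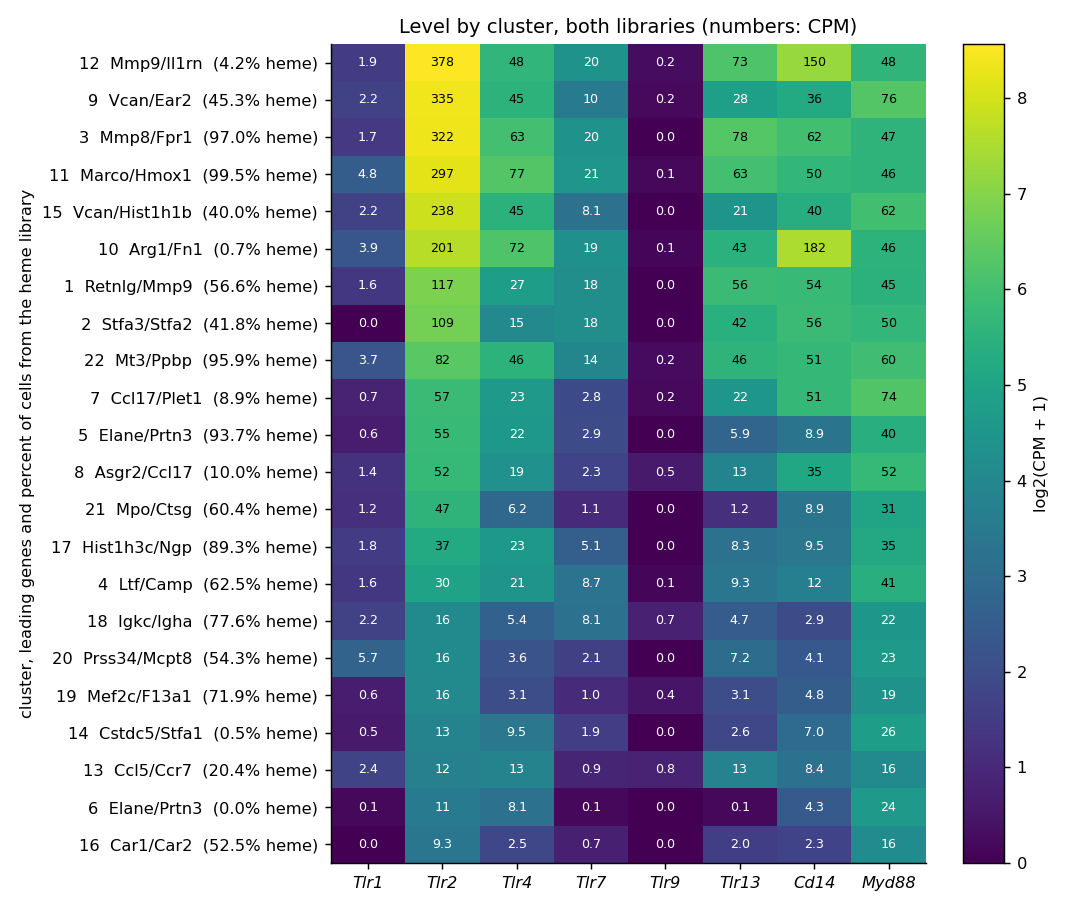
Level of each of the 8 genes (columns) in each of the 22 clusters (rows, with 2 leading genes and the percent of cells from the heme library), coloured by log2(CPM + 1) and with the CPM printed in each cell. Rows are ordered by Tlr2, from 378 CPM in cluster 12 to 9.34 CPM in the erythroid-like cluster 16, and Cd14 is highest in clusters 10 and 12.

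On day 7, 2 clusters carried most of the Tlr2 and Cd14 transcripts. In the control culture, cluster 10 made up 31.0% of cells and held 58.4% of the Tlr2 UMIs and 57.8% of the Cd14 UMIs. In the heme culture, cluster 11 made up 58.2% of cells and held 79.0% of the Tlr2 UMIs and 74.0% of the Cd14 UMIs. Clusters differ in UMIs per cell, so a share of cells is not a share of all UMIs. By CPM, Cd14 was at 44.2 in cluster 11 and 40.9 in the whole heme culture, and Tlr2 at 291 and 252. Cluster 10 held Cd14 at 198 CPM against 99.8 CPM in the whole control culture, and Tlr2 at 192 against 95.8 CPM. Clusters 7 and 13 made up 25.0% and 20.5% of the control culture, and cluster 13 held 2.29% of its Tlr2 UMIs.

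These clusters were set side by side as pairs chosen after their leading genes were seen. Between cluster 11 of the heme culture and cluster 10 of the control culture on day 7, Cd14 was at 44.2 and 198 CPM, a ratio of 0.223 (0.206 to 0.242). Tlr2 was at 291 and 192 CPM, a ratio of 1.52 (1.44 to 1.60), and Tlr13 at 63.9 and 43.8 CPM, a ratio of 1.46 (1.31 to 1.63). Tlr4 was at 79.0 and 72.9 CPM, a ratio of 1.08 (0.991 to 1.19), and Myd88 was at 42.8 CPM in both. Between the neutrophil-like cluster 3 of the heme culture and cluster 12 of the control culture, the Cd14 ratio was 0.380 (0.321 to 0.450) on day 5 and 0.253 (0.206 to 0.310) on day 7. The Tlr2 ratio of the same pair was 0.829 (0.772 to 0.891) on day 5 and 1.16 (1.01 to 1.34) on day 7. In both pairs Cd14 was lower with heme on each day compared, whereas Tlr2 was lower in 1 comparison and higher in the others.

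Within clusters that held at least 30 cells of each library on the same day, and 20 or more UMIs of the gene over both, the Cd14 ratios of day 3 stood around 1. They lay between 0.833 and 1.20 in 8 clusters, with a median of 0.973, and each interval held 1. On day 5, 4 of 5 clusters had an interval below 1, and the median ratio was 0.434. On day 7, 3 clusters remained, with ratios of 0.394 (0.259 to 0.584), 0.676 and 0.938, and 1 interval below 1. On day 4 the median was 0.903, with 1 interval below and 1 above 1.

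The median Tlr4 ratio within clusters was highest on day 3 among days 3 to 7. The interval then lay above 1 in 6 of 7 clusters, with a median ratio of 1.91 over the 6 clusters with UMIs in both libraries, and the median was 1.53 on day 4, 1.30 on day 5 and 1.30 on day 7. For Tlr2 the median was 1.38 over 8 clusters on day 3, 1.13 on day 4 and 1.14 on day 5. On day 7 it was 1.90 over 3 clusters, of which 1 had an interval above 1. For Tlr13 the medians were 1.46, 1.51, 1.62 and 1.04 on these days, and for Myd88 they were 1.22, 1.21, 0.922 and 1.17.

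**Figure D4:**
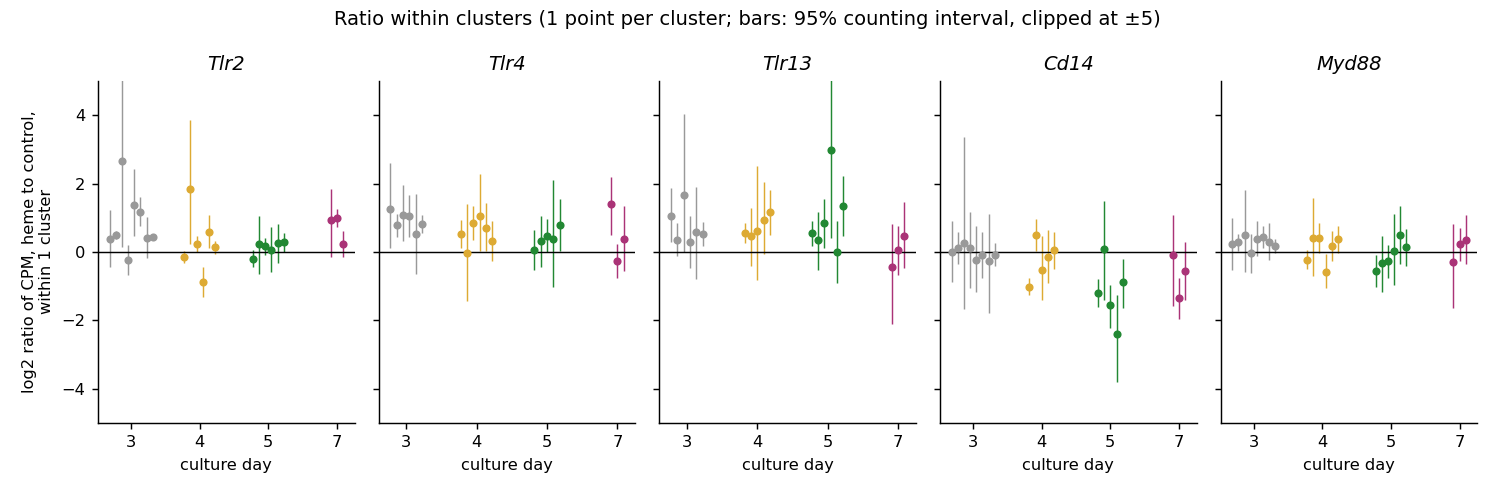
Log2 ratio of CPM, heme to control, within 1 cluster (vertical axis, clipped at 5 and -5), by culture day (horizontal axis) for 5 genes, with 1 point per cluster and 95% counting intervals as bars. For Cd14, the 8 clusters of day 3 sit around 0 and 4 of the 5 clusters of day 5 lie below it, while the points of Tlr4 lie above 0 on day 3.

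Neutrophil-like cells were also followed as a class, which joined 6 clusters with Cd14 from 6.99 CPM in cluster 14 to 150 CPM in cluster 12. Whether the levels of the class changed over the days within clusters or with the mix of clusters was not tested. In the control library, Cd14 in this class was at 7.96, 37.4, 73.9 and 267 CPM on days 3, 4, 5 and 7, and in the heme library at 9.54, 31.0, 36.5 and 46.5 CPM. Tlr2 was at 11.4, 72.2, 219 and 274 CPM in the control library and at 21.2, 87.7, 261 and 201 CPM in the heme library. On days 5 and 7, Tlr2 thus lay between 201 and 274 CPM in both libraries, whereas Cd14 went on to rise in the control library. Different clusters made up most of this class in the libraries, chiefly cluster 12 in the control and cluster 3 in the heme culture of day 7, and the control class of day 7 held 252 cells.

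The 64 other genes of the pathway, listed by role, were compared in the same way. On day 3, 5 of 60 counted were at least 2-fold higher and 1 lower in the heme library, beside 7.95% and 0.539% of all genes. The counts were 9 higher and 1 lower of 60 on day 4, beside 9.64% and 2.98% of all genes. On day 5 they were 6 higher and 5 lower of 60, beside 9.27% and 3.75%. On day 7, 11 were higher and 12 lower of 62, beside 14.9% and 7.67% of all genes. The counts by role below are those of day 7 and have the same shares of all genes as their background.

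Among the other Toll-like receptors on day 7, 3 of 5 counted were at least 2-fold higher with heme. They were Tlr8 at a ratio of 3.03 (2.31 to 3.99), Tlr3 at 2.96 (2.25 to 3.91) and Tlr6, the partner of Tlr2 for diacylated lipoproteins, at 2.37 (1.90 to 2.96). Tlr12, a receptor for a parasite protein, had 0 UMIs against 22, a ratio with an interval of 0 to 0.235. Its day 3 counts were 8 and 15 UMIs, a ratio of 0.477 (0.175 to 1.20).

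Among the 5 ligand transfer and co-receptor genes, Lbp, the plasma protein that carries lipopolysaccharide to Cd14, was at 9.02 CPM with heme and 1.62 CPM in the control, a ratio of 5.58 (4.16 to 7.60). Ly86, the partner of Cd180 in lipopolysaccharide sensing by B cells and myeloid cells, was at 4.64 and 89.9 CPM, a ratio of 0.0516 (0.0428 to 0.0617). The Ly86 ratio was 0.624 on day 3, 0.204 on day 4 and 0.145 on day 5. Ly96, the partner of Tlr4, was at a ratio of 0.889, Cd36, a scavenger receptor, was at 129 CPM with heme and 215 CPM in the control, and Cd180 was at 1.28, none of them past 2-fold. Between cluster 11 of the heme culture and cluster 10 of the control culture, the Ly86 ratio was 0.0442 (0.0328 to 0.0585).

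None of 4 folding and trafficking genes and none of 3 adaptors was past 2-fold on day 7. Unc93b1, which carries the endosomal receptors out of the endoplasmic reticulum, was at 0.544, and Tirap, which links Myd88 to Tlr2 and Tlr4, was at 1.97. Of 13 kinases and ubiquitin ligases, 2 were higher, Ikbkg at 4.31 and Traf3 at 2.24. Ikbkg, the regulatory subunit of the kinase that frees NF-kB, overlaps G6pdx on the opposite strand.

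Of 8 transcription factors, none was higher by 2-fold and 4 were lower. Irf7 was at a ratio of 0.362, Relb, a subunit of NF-kB, at 0.381, Irf5, which acts downstream of Myd88, at 0.412, and Rel at 0.456. Of 10 inhibitors, 3 were higher by 2-fold and none lower: Irak3, which blocks the Irak kinases, at 3.27, Zc3h12a, a nuclease of cytokine transcripts, at 2.32, and the phosphatase Dusp1 at 2.00. Irak3 and Dusp1 were already at 2.11 and 2.20 on day 3, and with that divided out they stood at 1.55 and 0.911.

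Target genes of the pathway went both ways. Tnf was at 148 CPM with heme and 41.6 CPM in the control on day 7, a ratio of 3.56 (3.35 to 3.79), and Ptgs2, a prostaglandin synthase, was at 2.45 (1.68 to 3.63). Of 14 counted, 6 were lower: Nos2 at 0.0159 (0.000397 to 0.0910, from 1 UMI against 81), Il12b at 0.165, Cd40 at 0.198, Ccl4 at 0.322, Acod1 at 0.419 and Cxcl10 at 0.446. Of these, Nos2, Il12b and Cd40 are also genes of activated dendritic cells, whose markers were lower in the heme culture, as given above. Acod1 was among the leading genes of the unnamed cluster 10, which came almost entirely from the control library. The part of these cells in the lower ratios was not tested. Within the 3 clusters that held enough cells of both libraries on day 7, the Tnf ratio lay between 3.03 and 3.71, each with an interval above 1, while on day 5 it lay between 0.400 and 1.44 in 6 clusters. Clusters 10 and 11, the largest of the control and heme cultures of day 7, were not among the 3. Over all days cluster 10 had 7 heme cells and cluster 11 had 7 control cells.

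**Figure D5:**
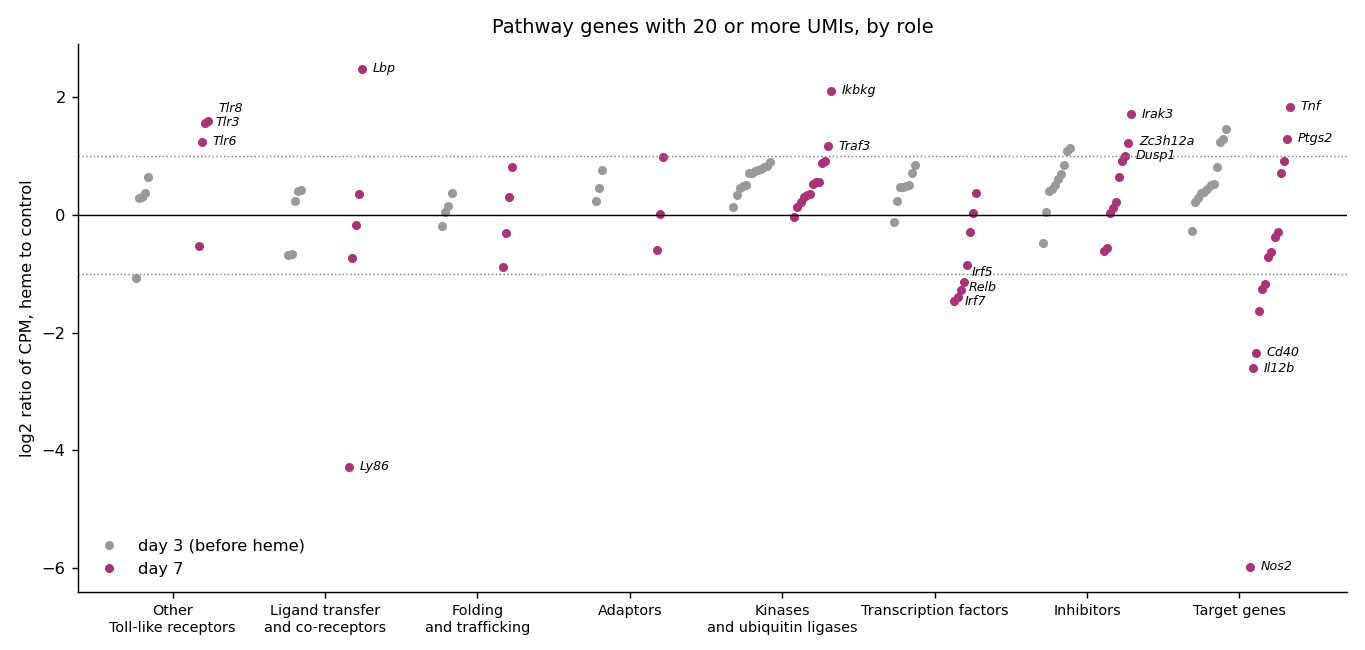
Log2 ratio of CPM, heme to control (vertical axis), of the pathway genes with at least 20 UMIs, by role (horizontal axis), on day 3 (grey) and day 7 (purple), with 1 point per gene and dotted lines at 2-fold (Tlr12, at 0 with heme on day 7, is not drawn there). On day 7 Ly86 lies at -4.28, Lbp at 2.48 and Tnf at 1.83, and no transcription factor lies above 2-fold.

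For each gene, the 3 genes with the most similar levels over the 10 cultures were taken from 7889 genes with a mean of at least 10 CPM, by Pearson's r of log2(CPM + 1). For Tlr2 they were Rhoq (r = 0.994), Uap1l1 (0.991) and Csf2ra, which encodes the GM-CSF receptor alpha chain. For Tlr4 they were Rbms1 (0.994), Arhgap31 (0.992) and Soat1 (0.989), and for Tlr7 they were Lpp (0.994), Rnf13 (0.992) and Tnip1. For Cd14 they were Basp1 (0.988), Rab11a (0.987) and Itgax (0.984), the CD11c integrin chain used as a dendritic cell marker. The closest gene was Aim2 (0.964) for Tlr1, 1600012H06Rik (0.991) for Tlr13 and Msrb1 (0.985) for Myd88. Among the 8 genes with Tlr9 set aside, r ran from 0.499 between Tlr1 and Myd88 to 0.969 between Tlr2 and Tlr4. The 10 cultures share libraries and the low levels of day 0, so these values describe likeness over the time course.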

How the data were processed

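Cells of both treatments were measured by droplet single-cell RNA sequencing (10x Genomics 3′ v3.1). The authors made the UMI counts with Cell Ranger, on GRCm38.p6, and called hashtags with Seurat 3.2.3, per the labels and methods (the processing notes name Cell Ranger 4.0.0, the file headers 5.0.0). The deposited files hold whole-number UMI counts per gene and barcode, and a deposited table gives the authors' hashtag call of each barcode. Of 13961 control and 17378 heme barcodes, 12050 and 14164 were called singlets and used, so doublets that share a hashtag remain. Cells with 500 to 5000 genes, under 15% mitochondrial and under 30% ribosomal UMIs were kept.

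UMIs were summed per culture and divided by the culture's total (Python 3.11.15, SciPy 1.17.1). Ratios carry exact 95% intervals for 2 Poisson counts, which cover counting error only, since each group is 1 library. A gene was counted with 20 or more UMIs over both cultures and called at 2-fold, with no p-value. Ratios relative to day 3 were divided by the day 3 ratio, and their intervals combine both on the log2 scale. Clusters came from scran 1.30.0 scaling, 15 principal components and Leiden clustering at resolution 1 (Scanpy 1.11.5), without the genes described. Alternatives were TMM (edgeR 4.0.16) and DESeq2 1.42.0 size factors, other cell filters, per-cell means, another threshold, thinning depth and clustering. On simulated counts of the day 7 comparison, 99.0% of 199 changed among 12861 genes were called, with 0.466% of the unchanged. The changed genes were simulated well past 2-fold and with counting error only, so nearly all were bound to be called. These shares belong to the simulated counts only and say nothing about measured calls near 2-fold. Whether the calls made on the measured cultures would hold in a second library was not tested. The genes, the pathway list and the tests were chosen with earlier results of these data known. Named pathway genes were, in each role, up to 3 with the largest ratios past 2-fold in each direction on day 7, 19 in all, and other pathway genes named were chosen after their values were seen. Sequences were read from the RefSeq promoter table.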

Additional observations from a re-analysis of the deposited data

Results flagged for a closer look

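Among 27 genes searched, the 8 genes and 19 named pathway genes, 4 had opposite signs either in the heme to control ratios of days 4, 5 and 7 or in the day 7 to day 3 ratios of the libraries, with the counting interval off 0 on both sides under all 4 ways of setting the totals (CPM, TMM, DESeq2, and totals without ribosomal and mitochondrial genes). The difference was not tested for any of them. All 4 are among the 19 pathway genes, which were named because their day 7 ratios passed 2-fold. Those day 7 values also enter the signs compared, so the search is not independent of the choice of genes. Tlr2 also had opposite signs from day 3 to day 7, with a log2 ratio of -0.11 (-0.19 to -0.043) without heme and 0.88 (0.83 to 0.94) with heme, and is not among the 4 because the first interval reached 0 with totals without ribosomal and mitochondrial genes. The search was not run over all genes, so no share of all genes stands beside the 4. Each library is 1 sample, so these are values of single cultures.

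Ly86 rose by 0.83 on the log2 scale from day 3 to day 7 without heme and was at -2.77 with heme over the same days. From day 3 to day 7, Tnf was at -0.28 without heme and 1.17 with heme, and Irak3 was at -0.42 and 0.21. Cd40, the co-stimulatory receptor of dendritic cells and macrophages, had a log2 ratio of heme to control of 0.83 on day 4, -0.50 on day 5 and -2.34 on day 7. From day 3 to day 7 it was at 1.92 without heme and -0.63 with heme.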

How the results depend on the processing

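No paired analysis was possible because each group is 1 library, and for the same reason no replicate could be left out. Dividing out day 3 turned the Tlr4 log2 ratio to -0.26 on day 4, -0.26 on day 5 and -0.22 on day 7, and that of Tlr7 on day 5 to -0.17. The median over the 7 counted genes (0.77, 0.77 and 0.83 on days 4, 5 and 7) became -0.089, -0.17 and 0.15 with day 3 divided out, 0.56, 0.53 and 0.59 with TMM, and 0.53, 0.52 and 0.57 with DESeq2 size factors. With per-cell means it was 0.60 on day 4 and 0.33 on day 5. Over 8 alternatives the Cd14 log2 ratio of day 7 stayed between -1.55 and -1.24 and that of Tlr2 between 0.996, just under 2-fold, with day 3 divided out, and 1.45. TMM shifted all log2 ratios of heme to control by -0.21, -0.24 and -0.23 on days 4, 5 and 7, and DESeq2 by -0.25, -0.25 and -0.26. The signs of Tlr2 on day 4 and Myd88 on day 7 changed with both scalings, that of Cd14 on day 4 with no upper gene limit and that of Myd88 on day 4 with per-cell means.

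Of the pathway genes, 9 were higher on day 4, which became 4 with TMM, 3 with DESeq2, 27 at 1.5-fold, 0 with day 3 divided out and 3 relative to the all-gene median. The 1 lower became 3 with TMM, 3 with DESeq2, 2 with no minimum count, 4 at 1.5-fold, 3 with day 3 divided out and 4 relative to the median. On day 5, 6 higher became 16 at 1.5-fold and 3 with day 3 divided out, and 5 lower became 9 at 1.5-fold. On day 7, 11 higher became 7 with DESeq2, 19 at 1.5-fold, 5 with day 3 divided out and 7 relative to the median, and 12 lower became 19 at 1.5-fold. The settings with day 3 divided out and relative to the median were chosen after seeing the data for these pathway counts. Shares of cells rose with thinning depth, and 14 of 16 moved beyond their interval at 6000 UMIs and without thinning. Neutrophil-like control cells gave no value with 30 principal components, and the class holding cluster 7 gave none at resolution 0.5 in the control library. Depth limits Tlr1 and Tlr9.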

Other observations

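Granulocyte-monocyte progenitor-like cells also held Tlr2, and its level in them is a value of few cells per culture. In the control library Tlr2 was at 31.5, 33.4 and 50.3 CPM on days 3, 4 and 5, from 361, 113 and 43 cells. In the heme library it was at 35.3, 66.8 and 106 CPM on the same days, from 427, 147 and 87 cells, and at 74.5 CPM in 56 cells of day 7. On day 3 the intervals of both libraries overlapped (27.6 to 35.8 and 31.1 to 39.8 CPM), and on days 4 and 5 they did not. Different clusters make up this class in the libraries.

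Basophil or mast cell-like cells (cluster 20, leading genes Prss34 and Mcpt8) had Tlr1 at 5.66 CPM (2.83 to 10.1) from 11 UMIs in 359 cells, and the macrophage-like cluster 11 had it at 4.79 CPM (3.95 to 5.76) from 113 UMIs. Tlr9 was at 0.784 CPM (0.391 to 1.40) in the dendritic cell-like cluster 13, from 11 UMIs in 989 cells, and had 0 UMIs in cluster 20. These counts are too few for an order of the clusters.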
